A study of Mus musculus with 2 samples.

Results

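The troponin complex holds 3 proteins on the actin filament of striated muscle, and the mouse genes described here encode all of them: Tnni1, Tnni2 and Tnni3 for troponin I, Tnnt1, Tnnt2 and Tnnt3 for troponin T, and Tnnc1 and Tnnc2 for troponin C. The 8 genes were taken by name, whatever their level, and found by Ensembl identifier in 8 of the 34624 loci of the deposited tables. Overlapping genes were joined by the authors into a common locus, whose reads cannot be split between them. The study sequenced total RNA of whole, untreated mouse embryos from CBA/Ca×C57Bl/10 crosses at embryonic day 10.5. There was 1 group of 2 replicates and no other condition. Whether each replicate came from 1 or several embryos is not stated in the labels, so the spread between replicates may be technical.

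As background, calcium that binds troponin C releases the block that troponin I places on actin and myosin, and troponin T ties the complex to tropomyosin. Each subunit has paralogues that are named after the adult muscle in which they prevail. Tnni3 and Tnnt2 are the cardiac forms, Tnni1 and Tnnt1 the slow skeletal forms, Tnni2, Tnnt3 and Tnnc2 the fast skeletal forms, and Tnnc1 serves both heart and slow muscle. The names do not hold strictly in embryos: the embryonic heart uses Tnni1 before Tnni3 takes over, and young skeletal muscle also makes Tnnt2. At this stage the heart beats, and the first skeletal muscle is forming in the myotomes of the somites.

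The coding sequences show how the paralogues differ and how far their reads can be told apart. They were read from GENCODE M21 transcripts that the deposited tables also list, taking the longest complete coding sequence of each gene. Tnni3 codes for 211 amino acids, against 187 for Tnni1 and 182 for Tnni2, and the extra length of the cardiac gene lies at its start. The first 150 coding bases of Tnni3 and the first 90 of the others are given here. Capitals in Tnni3 mark the 96 bases that precede the first base aligned with Tnni1, the stretch for the N-terminal extension of cardiac troponin I, and capitals in Tnni1 and Tnni2 mark the start codon.
Tnni3: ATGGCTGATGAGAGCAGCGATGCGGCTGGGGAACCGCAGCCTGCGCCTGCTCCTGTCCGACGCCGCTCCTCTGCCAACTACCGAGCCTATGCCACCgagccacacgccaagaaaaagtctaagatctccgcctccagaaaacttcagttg
Tnni1: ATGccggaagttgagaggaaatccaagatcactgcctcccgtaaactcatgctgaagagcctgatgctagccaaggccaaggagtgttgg
Tnni2: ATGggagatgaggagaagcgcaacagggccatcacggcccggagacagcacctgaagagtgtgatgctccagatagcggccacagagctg

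Tnnt2 had the longest coding sequence of troponin T, 906 bases against 819 in Tnnt3 and 789 in Tnnt1, while Tnnc1 and Tnnc2 were nearly equal at 486 and 483 bases. In pairwise global alignments within a subunit, 66.0% (Tnni1 and Tnni3) to 70.1% (Tnnc1 and Tnnc2) of aligned coding bases were identical. The longest run without a mismatch was 22 bases, in Tnni1 and Tnni2, and the shortest of the 7 pairs' longest runs was 14 bases, in Tnni2 and Tnni3. The read length is not given in the sources used here. Tnnc1 and Tnnc2, the most alike pair, are shown at coding bases 34 to 94, with their longest shared run of 21 bases in capitals.
Tnnc1: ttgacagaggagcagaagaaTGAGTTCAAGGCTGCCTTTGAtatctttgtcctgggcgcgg
Tnnc2: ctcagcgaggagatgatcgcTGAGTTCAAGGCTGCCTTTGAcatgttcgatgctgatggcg

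Replicate 1 held 18318181 counts and replicate 2 held 117522171 (6.42 times as many), so the values of replicate 2 carry less counting error. Levels are given below as RPKM, reads scaled to transcript length and library size, as the authors deposited them. Intervals are exact 95% Poisson intervals of the count, put on the RPKM scale, and cover counting error only. All 8 troponin loci reached 1 RPKM in both replicates, as did 49.4% of all loci. Their median was 24.1 RPKM in replicate 1 and 21.9 in replicate 2, beside 1.76 and 1.00 over all loci and 21.6 and 15.7 over the 17090 loci that reached 1 RPKM in both. In RNA of whole embryos, fewer muscle cells and less transcript per muscle cell cannot be told apart.

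Troponin C, the calcium sensor, gave the highest locus of the family. Tnnc1 stood at 44.0 RPKM in replicate 1 (344 reads, interval 39.5 to 48.9) and 50.9 in replicate 2 (2010 reads, 48.7 to 53.2), a mean of 47.5 ± 4.89 (SD, n = 2). Its locus also holds the identifier ENSMUSG00000021909, which has no symbol in the table of names used. Whether all reads of this joined locus belong to Tnnc1 is thus not known. The fast skeletal Tnnc2 stood at 20.1 RPKM (154 reads, 17.0 to 23.5) and 16.0 (696 reads, 14.8 to 17.2), a mean of 18.0 ± 2.91. Tnnc2 lay below Tnnc1 in both replicates, and the counting intervals of the 2 genes did not overlap. As a share of the summed RPKM of troponin C, Tnnc2 made up 31.3% in replicate 1 and 23.9% in replicate 2, the largest share of a fast gene in any subunit.

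Troponin T, which anchors the complex to tropomyosin, was led by the cardiac and slow genes. Tnnt2, the cardiac gene, stood at 31.1 RPKM (378 reads, interval 28.0 to 34.3) and 39.1 (2677 reads, 37.7 to 40.7), a mean of 35.1 ± 5.72 (SD, n = 2). Tnnt1, the slow skeletal gene, stood at 24.8 RPKM (257 reads, 21.8 to 28.0) and 30.8 (1818 reads, 29.4 to 32.2), a mean of 27.8 ± 4.24. The fast skeletal Tnnt3 reached 6.66 RPKM (58 reads, 5.06 to 8.61) and 5.84 (262 reads, 5.15 to 6.59), a mean of 6.25 ± 0.580. Both Tnnt2 and Tnnt1 were higher in replicate 2, and Tnnt3 lay below both of them in each replicate. Tnnt2 made up 49.7% and 51.7% of troponin T RPKM, Tnnt1 39.7% and 40.6%, and Tnnt3 10.7% and 7.71%.

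Troponin I, the inhibitory subunit, had the joined locus of its cardiac gene and its slow gene at similar levels. Its fast gene was near the minimum. The locus of the cardiac Tnni3 stood at 32.3 RPKM (254 reads, interval 28.4 to 36.5) and 22.3 (1171 reads, 21.0 to 23.6), a mean of 27.3 ± 7.08 (SD, n = 2). That locus joins Tnni3 with Dnaaf3, a gene for the assembly of ciliary dynein arms, and with Gm15873, so neither its reads nor its RPKM can be given to Tnni3 alone. Tnni1, with a locus of its own, stood at 23.4 RPKM (199 reads, 20.2 to 26.8) and 21.4 (956 reads, 20.1 to 22.8), a mean of 22.4 ± 1.35. Tnni1 lay below the Tnni3 locus in replicate 1, where their intervals did not overlap, while in replicate 2 the intervals overlapped.

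Tnni2, the fast troponin I, had the lowest of the 8 loci, at 1.91 RPKM (18 reads, interval 1.13 to 3.02) and 1.98 (71 reads, 1.55 to 2.50). It made up 3.33% and 4.34% of troponin I RPKM, or a mean of 8.02% when the joined Tnni3 locus was left out. The 18 and 71 reads show it as detected, above the 1 RPKM minimum in both replicates. With the lower bound of its interval, replicate 1 was still above 1 RPKM. Of the loci that reached 1 RPKM in both replicates, 3.59% lay below Tnni2 in replicate 1 and 10.3% in replicate 2, against 68.0% and 75.7% below Tnnc1.

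**Figure D1:**
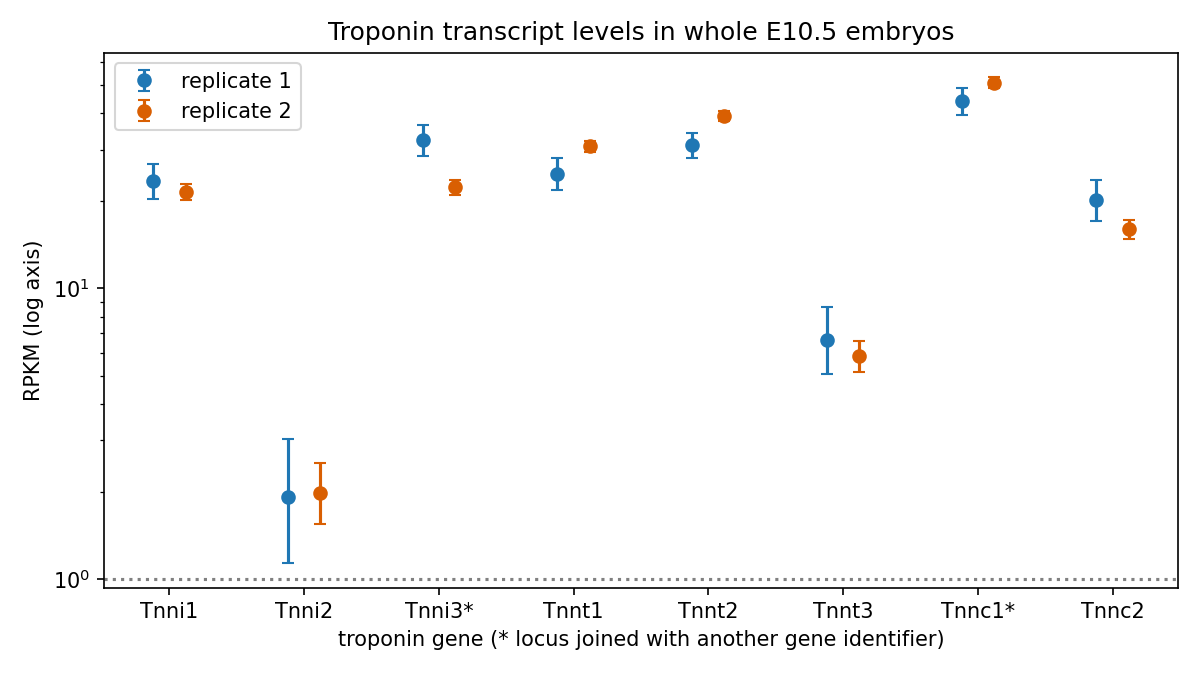
RPKM on a log axis for the 8 troponin genes in replicate 1 (blue) and replicate 2 (orange), with exact 95% Poisson intervals of the counts as bars and the 1 RPKM minimum as a dotted line. Tnni2 lies just above the minimum, Tnnt3 near 6 RPKM, and the other 6 genes between 16.0 and 50.9 RPKM.

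In the order of mean RPKM the loci ran Tnnc1 (joined), Tnnt2, Tnnt1, Tnni3 (joined), Tnni1, Tnnc2, Tnnt3 and Tnni2. Neighbours were compared with the replicate spread, and a difference counted as beyond it when its sign was shared by both replicates and its mean exceeded 2 SD of the replicate log2 ratio among loci of that level. From Tnnc1 down to Tnnc2 no neighbours differed beyond the spread, and Tnnt1 and the Tnni3 locus changed order between replicates. Tnnt3 was lower than Tnnc2 by 1.39 ± 0.11 on the log2(RPKM + 1) scale, and Tnni2 lower than Tnnt3 by 1.30 ± 0.14, both beyond their limits of 1.28 and 1.22. The 3 fast skeletal genes thus held the last places, yet they were far from equal: Tnnc2 was 10.5-fold above Tnni2 in RPKM in replicate 1 and 8.06-fold in replicate 2.

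The 7 pairs of paralogues within a subunit were compared in the same way, on differences of log2(RPKM + 1), and 5 of them lay beyond the replicate spread. With 2 replicates no exact permutation test between genes could give a two-sided p below 0.333, so no test was run. Tnni1 exceeded Tnni2 by 2.99 ± 0.11 (SD, n = 2, limit 1.28), or 12.2-fold in RPKM in replicate 1 (exact interval of the count ratio 7.53 to 21.0) and 10.8-fold in replicate 2 (8.49 to 14.0). The Tnni3 locus exceeded Tnni2 by 3.24 ± 0.39 (limit 1.22). The fast troponin I was thus lower than Tnni1 and than the joined Tnni3 locus in each library.

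For troponin T, Tnnt2 exceeded Tnnt3 by 2.31 ± 0.35 (limit 1.15), which was 4.66-fold in RPKM in replicate 1 (interval 3.53 to 6.26) and 6.70-fold in replicate 2 (5.90 to 7.64). Tnnt1 exceeded Tnnt3 by 1.98 ± 0.33 (limit 1.15). The joined Tnnc1 locus exceeded Tnnc2 by 1.35 ± 0.37, just past its limit of 1.28. In RPKM this was 2.19-fold in replicate 1 (1.81 to 2.67) and 3.19-fold in replicate 2 (2.92 to 3.48). The troponin C difference was the least firm: it was within the spread in replicate 1 alone (1.09 against 1.28) and with a pseudocount of 0.1 (1.40 against 1.45).

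The loci of the cardiac and slow paralogues did not differ beyond the replicate spread. Tnnt2 minus Tnnt1 was 0.33 ± 0.02 (limit 1.11), a steady 1.25-fold in RPKM in replicate 1 (interval 1.07 to 1.47) and 1.27-fold in replicate 2 (1.20 to 1.35). The counting intervals thus lay above 1 in both libraries, although the difference was small beside the spread of other loci. Tnni1 minus the joined Tnni3 locus was -0.25 ± 0.28 (limit 1.28), which does not give the difference from Tnni3 alone. A pair within the limit is not shown to be equal.

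**Figure D2:**
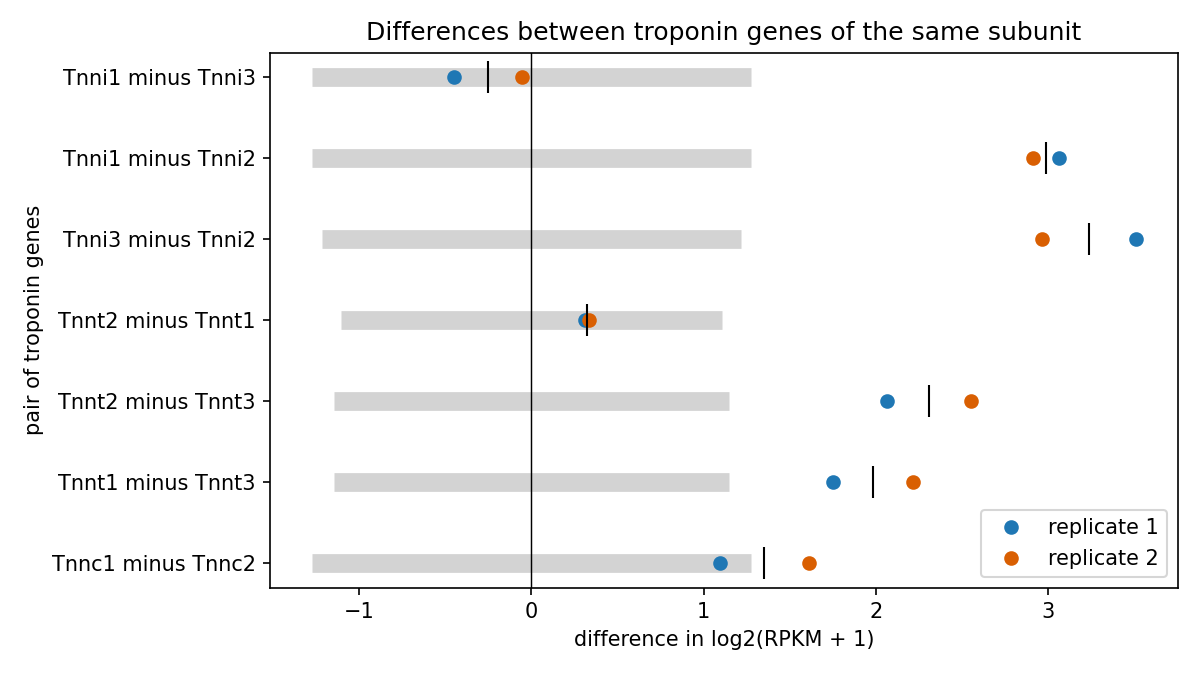
Differences in log2(RPKM + 1) for 7 pairs of troponin genes, with replicate 1 in blue, replicate 2 in orange, the mean as a black tick and the limit of 2 SD of the replicate log2 ratio in grey. Pairs of a cardiac or slow gene against a fast gene lie right of the grey band, except replicate 1 of Tnnc1 minus Tnnc2 at 1.09, while Tnni1 minus Tnni3 and Tnnt2 minus Tnnt1 lie inside it.

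The subunits, which occur in equal number in the complex, had summed RPKM of the same order. Troponin I summed to 57.6 RPKM in replicate 1 and 45.7 in replicate 2, a mean of 51.6 ± 8.38 (SD, n = 2). Troponin T summed to 62.5 and 75.8 RPKM (69.1 ± 9.38), and troponin C to 64.1 and 66.9 (65.5 ± 1.98). The ratio of troponin I to troponin T was 0.921 in replicate 1 and 0.603 in replicate 2, and that of troponin T to troponin C 0.975 and 1.13. Troponin I was the lowest sum in both replicates, with the joined Tnni3 locus in it, while the order of T and C changed. The sum of troponin C holds the joined Tnnc1 locus. All 8 genes together gave 184 and 188 RPKM, of which the 3 fast genes made up 15.6% and 12.6%.

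**Figure D3:**
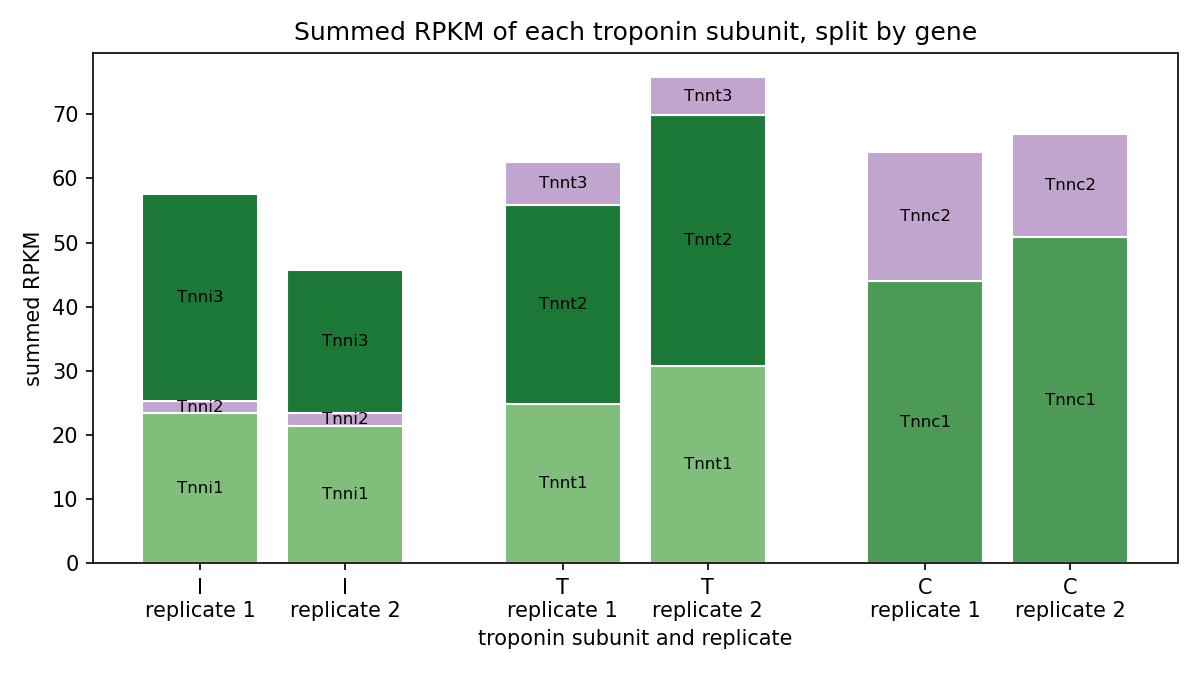
Summed RPKM of troponin I, T and C in each replicate, with bars starting at 0 and split by gene (cardiac genes dark green, slow genes light green, Tnnc1 mid green, fast genes purple). The sums run from 45.7 to 75.8 RPKM, and the fast share grows from Tnni2 over Tnnt3 to Tnnc2.

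Troponin I and T genes lie in pairs in the mouse genome. In the RefSeq gene table for GRCm38.p6, Tnni1 and Tnnt2 share chromosome 1 with 1 protein-coding gene, Lad1, starting between them. Tnni3 and Tnnt1 are next to each other on chromosome 7, and Tnni2 and Tnnt3 share that chromosome with Lsp1 between them. In mean RPKM, Tnni1 and Tnnt2 stood at 22.4 and 35.1, the joined Tnni3 locus and Tnnt1 at 27.3 and 27.8, and Tnni2 and Tnnt3 at 1.95 and 6.25. The fast pair held the lowest locus of each of these subunits.

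Promoters of the most abundant members were read from the RefSeq promoter table, in which 6 of the 8 genes had an entry (all but Tnni2 and Tnnt3). The 250 bases before each start were searched on both strands for the MCAT motif CATTCC, for the GATA motif (GATA after A or T and before A or G), for the E-box CANNTG, and for the CArG and MEF2 boxes. MCAT was present in 12.6% of all 32851 windows of that length, GATA in 26.5%, the E-box in 66.2%, the MEF2 box in 2.92% and the CArG box in 1.47%. Among the 8 windows of the 6 troponin genes, MCAT was found only in Tnnc1, starting 58 bases before the start, and in the more upstream of 2 Tnnt2 windows, 27 bases before it. That Tnnt2 window also held the only GATA match, an E-box was in all 8 windows, and none held a CArG or MEF2 box. The 2 Tnni1 windows overlap and share E-box sites, so the 8 windows are not separate sequences. No MCAT or GATA match overlapped another motif. The bases after the start of that Tnnt2 window were not found unbroken in a GENCODE M21 transcript of Tnnt2. Those of the other Tnnt2 window, which held no MCAT or GATA match, were. The bases after the start of the Tnnt1 window and of the more downstream Tnni1 window were also not found in a transcript of their gene. These are matches of letters, which show no binding. The Tnnc1 and Tnnt2 windows, from the highest loci of the family, are printed with MCAT and GATA matches in capitals (on either strand), on the plus strand of GRCm38.p6 at chr14:31208062-31208311 and chr1:135836084-135836333.
Tnnc1: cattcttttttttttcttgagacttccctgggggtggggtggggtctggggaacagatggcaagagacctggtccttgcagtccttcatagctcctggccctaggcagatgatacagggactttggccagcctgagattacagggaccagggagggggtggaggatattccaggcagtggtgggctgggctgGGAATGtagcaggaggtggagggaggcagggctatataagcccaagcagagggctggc
Tnnt2: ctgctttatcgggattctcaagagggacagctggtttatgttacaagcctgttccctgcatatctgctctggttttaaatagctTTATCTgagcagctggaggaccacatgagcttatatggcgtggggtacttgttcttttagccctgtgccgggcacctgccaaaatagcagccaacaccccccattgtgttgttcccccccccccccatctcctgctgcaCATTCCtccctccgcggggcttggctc

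The change between the libraries was small for every troponin. On the log2(RPKM + 1) scale the change from replicate 1 to replicate 2 ran from -0.52 in the Tnni3 locus to 0.32 in Tnnt2, and none of the 8 exceeded 2-fold, while 9.86% of the loci of 1 RPKM or more did. The same loci had a median change of -0.36, and 7 of the 8 troponins lay above it, the Tnni3 locus being the exception. Tnnt2 (0.32), Tnnt1 (0.30), Tnnc1 (0.21) and Tnni2 (0.03) were higher in replicate 2, as were 21.7% of detected loci. Such signs depend on the scale: with RPKM rescaled to the same sum in both libraries no troponin was higher in replicate 2, 2 were lower by over 2-fold, and the median of all detected loci moved to -1.13.

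The length that the authors used for a locus also differed between libraries. Reads per RPKM had a ratio of 5.68 between replicates in loci with a single transcript, and Tnnc2 (2 transcripts), Tnnt1 (12) and Tnnt2 (4) kept that ratio to within a factor of 1.00, 1.00 and 0.989. For Tnni2 (6 transcripts) the factor was 0.670, for Tnnc1 0.889, for Tnnt3 (24 transcripts) 0.907, for Tnni1 0.921 and for the Tnni3 locus 1.18. With the reads per RPKM of replicate 1, scaled by 5.68, applied to replicate 2, Tnni2 came to 1.33 RPKM in place of 1.98. The Tnni3 locus came to 26.2 in place of 22.3. Tnni2 thus stayed the lowest of the troponin loci with either scaling.

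Other thin filament genes spanned a wider range than the troponins. Of 13 loci for actins, tropomyosins, tropomodulins, leiomodins and nebulin-type proteins, 12 reached 1 RPKM in both replicates, with medians of 20.4 and 20.9 RPKM. This count and those of the lists below are to be read beside the 49.4% of all loci that did so. Tpm1, the tropomyosin of striated muscle that is also made elsewhere, was highest (489 and 558), then Tpm4 (175 and 220, joined) and Tpm2 (140 and 107), and Nrap was lowest (0.448 and 0.322, joined). The striated muscle actins Actc1 and Acta1 summed to 116 and 117 RPKM, 1.82 and 1.75 times the sum of troponin C. The actin sum was also above those of troponin I and troponin T, and below the sum of all 8 troponins, in each library.

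The list of cardiac thick filament genes passed at 8 of 8 loci, with medians of 46.9 and 61.2 RPKM. Myl4, the atrial and embryonic light chain (97.8 and 284, joined), Myh7 (74.4 and 94.2) and the ventricular light chain Myl2 (54.6 and 95.3) were highest, and Myom1 lowest (9.90 and 8.93). The cardiac markers Myh6 (68.0 and 81.6), Myl7 (38.4 and 31.0) and Nkx2-5 (1.37 and 1.17) were present in both libraries. All 10 loci listed as cardiac regulators passed, with Nkx2-5 lowest. The highest were Mef2c (47.6 and 47.9), Hand2 (24.8 and 29.8) and Isl1 (30.8 and 16.9). RNA of whole embryos does not show how much of these transcripts came from the heart.

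Fast skeletal partners were split between a few high genes and many near 0. Of 11 loci 5 passed, a share near the 49.4% of all loci, with medians of 0.792 and 0.413 RPKM. The fast light chain Mylpf (76.8 and 56.7), the embryonic myosin Myh3 (37.1 and 29.5) and Myl1 (12.8 and 8.84) were highest, while Ckm, the creatine kinase of muscle, was lowest (0.180 and 0.0632, joined). The fast troponins fell between these ends: Tnnc2 lay between Myh3 and Myl1, Tnnt3 below Myl1, and Tnni2 near the perinatal myosin Myh8 (2.08 and 2.02). Mylpf was 40.1-fold and 28.6-fold above Tnni2. Of 9 loci listed as skeletal myogenic regulators 8 passed, and the myoblast fusion gene Mymk was lowest (0.527 and 0.680). Pax3 (39.4 and 25.8) and Six4 (21.6 and 12.4) were highest, and whole embryos do not show which tissue made them. The markers Myog (14.0 and 8.49), Myf5 (5.93 and 3.48) and Myod1 (1.45 and 1.22) all passed.

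Calcium handling genes, which set the signal that troponin C reads, passed at 11 of 13 loci, with medians of 12.1 and 9.13 RPKM. The calcium pump Atp2a2 (113 and 131), the exchanger Slc8a1 (70.8 and 50.2, joined) and phospholamban, Pln (49.6 and 25.9, joined), were highest. Sln was lowest (0.305 and 0.376). How much of these transcripts came from muscle is not shown by RNA of whole embryos. Z-disc and titin genes passed at 6 of 9 loci, beside 49.4% of all loci. They were led by Ttn (47.8 and 42.3, joined), Des (22.8 and 19.9) and Csrp3 (17.4 and 14.9), with Tcap lowest (0.270 and 0.547). By their levels alone over the 2 libraries, the nearest of 90 list genes was Des for Tnni1, Mef2c for Tnnc1, Hand2 for Tnnt1, Casq1 for Tnnc2, Cnn1 for Tnnt3, Myh8 for Tnni2, Tagln for Tnnt2 and Atp2a1 (joined) for the Tnni3 locus. The distances in log2(RPKM + 1) ran from 0.04 for Hand2 to 0.33 for Tagln, and 2 libraries of 1 kind of sample show no shared pattern beyond level.

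Genes listed for smooth muscle, primitive blood and trophoblast were also read in both libraries. In whole embryos these lists do not show which tissue made a transcript. The smooth muscle list passed at 7 of 7 loci, with Myh11 lowest (1.44 and 1.19). Acta2 (76.3 and 85.1), Tagln (38.8 and 36.4) and Smtn (23.7 and 11.6, joined) were highest, which is not a measure of the amount of smooth muscle. Smooth muscle uses no troponin as its calcium sensor. The embryonic globin Hbb-y of primitive red cells had values of 1746 and 6474 RPKM, and its part in the troponin values was not tested. Trophoblast and decidual genes passed at 2 of 7 loci, Prl2c2 (5.20 and 3.07) and Prl8a2 (1.23 and 6.38), with Tpbpa and Psg21 at 0 reads in both.

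**Figure D4:**
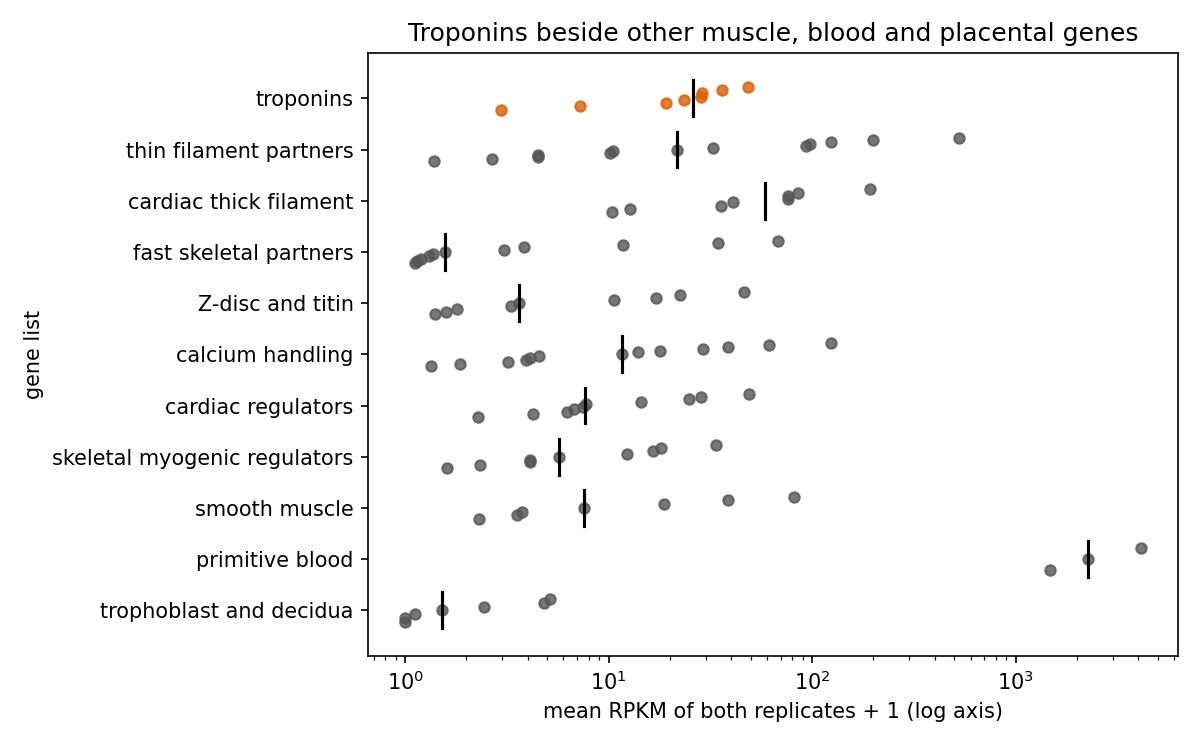
Mean RPKM of both replicates plus 1, on a log axis, for each gene of the troponins (orange) and 10 other lists (grey), with the list median as a black line. The troponin median lies between that of the fast skeletal partners and that of the cardiac thick filament genes, but the lists overlap. Mylpf (66.7), of the fast skeletal list, lies above every troponin, and Myom1 (9.41), of the cardiac thick filament list, lies below most of them.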

How the data were processed

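Total RNA of 2 replicates of whole mouse embryos was sequenced on an Illumina instrument, per the labels' protocols. TopHat and build mm9 are named, without version, per the submitters' processing notes; for the read counter, filters and strand this is not given in the sources used here, and reads of antisense genes may thus be included. The authors deposited RPKM values and whole-number read counts per locus, per the file headers. The 34676 rows were summed by their set of gene identifiers into 34624 loci, of which 2473 (7.14%) joined several identifiers, and each troponin locus was 1 row. Symbols matched 86.6% of identifiers. RPKM was the main unit, and log2 values used a pseudocount of 1, which understates differences of low genes. Replicate spread was the SD of the log2 ratio in 20 level bins of the 29654 loci above 0, and a pair used the larger SD of its genes. Counts gave exact intervals (Poisson for a count, Clopper-Pearson for a ratio of counts) and CPM. The replicates were not 1 library deposited again: the median chi-square of their counts over 16743 loci was 53.3, against 0.455 for sampling noise. The method was tested on simulated data.

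The members and lists were chosen with earlier results of these data known. Named genes were the 8 members, genes joined with them, the 3 highest and the lowest of each list with any at 0 in both, the nearest list gene of each member, and the markers; Actc1 and Acta1 were added afterwards as the filament's actins. Of the genes this rule names, 1 is not reported here. Alternatives covered the minimum, pseudocount, spread, rows, scaling, joined loci and each replicate left out. The use of replicate 1's reads per RPKM in both was added after seeing the data. Python 3.11.15, pandas 2.3.3, scipy 1.17.1 and Biopython 1.88 were used.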

Additional observations from a re-analysis of the deposited data

How the results depend on the processing

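Of 109 values under other settings, 99 kept their call and moved by less than the replicate SD (counts: by at most 1.5 times). Part of this was fixed in advance, so the number does not measure stability. With 2 replicates, leaving 1 out cannot move a mean by as much as the SD, and only its call could change. Each troponin locus was 1 row, so taking the highest row changed only the limit of a pair. The spread over loci of 1 RPKM or more likewise changed only the limit. With a pseudocount of 0.1, Tnni1 minus Tnni2 rose to 3.46, Tnni3 minus Tnni2 to 3.72, and Tnnc1 minus Tnnc2 (1.40) fell within the spread. The last was also within it without replicate 2: the difference was 1.09 in replicate 1 and 1.61 in replicate 2. With the length behind replicate 1 in both, Tnni1 minus Tnni2 was 3.11 and mean Tnni2 was 1.62 RPKM. Without the joined locus, Tnni2 was 8.02% of troponin I. With RPKM rescaled to the same sum, 2 members were past 2-fold and 0 were higher in replicate 2, and with CPM 2 were higher; the cause was not tested. Pairs beyond the spread numbered 4 to 5, members that reached the minimum 7 (at 3 RPKM) to 8. No fraction without Tnnc1 was computed for troponin C, as it would leave 1 gene. No paired analysis was possible because the series has 1 group. Depth limits Tnni2 most, with 18 reads in replicate 1.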
